A study of Betula luminifera with 4 samples.

Results

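The plant microRNA families miR164 and miR394 were followed across roots and shoots of the birch Betula luminifera with and without phosphate. Every row of the deposited miRNA table named miR164 or miR394 was taken, all arms and length forms, with each distinct sequence once. This gave 6 of the 215 distinct mature sequences, 3 of miR164 (miR164a, miR164a-3p and miR164b-3p) and 3 of miR394 (miR394a, miR394a-3p and miR394b). All plants were of 1 clone, G49, raised in tissue culture, planted in sand at an age of 2 months, watered with phosphate medium for 2 weeks and then with deionized water for 2 weeks. LP plants then received medium without KH2PO4, the only phosphate source, with K+ made up by K2SO4, and CK plants received medium with 1.25 mM KH2PO4. The 4 groups were root LP, root CK, shoot LP and shoot CK, and each was 1 small RNA library. Each shoot library held stem and leaf RNA pooled in equal amounts. The 54 plants of the study stood in 3 blocks, and the labels do not say how many entered a library. With single libraries there are no replicates, so no test was made and no p-value is given. Intervals given are exact 95% intervals that cover the counting error of the reads alone, and PCR copies are not independent molecules.

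In plants, miR164 pairs with mRNAs of NAC transcription factors. In Arabidopsis these include the CUP-SHAPED COTYLEDON genes, which set organ boundaries in the shoot, and NAC genes with roles in lateral roots and in leaf ageing. miR394 pairs with the mRNA of an F-box protein that in Arabidopsis is called LEAF CURLING RESPONSIVENESS, and there it acts in the shoot meristem and in leaf shape. In both families the 5' arm of the hairpin gives the strand that guides silencing, and the opposite strand usually leaves few reads. The libraries hold small RNA, so neither the target mRNAs nor mRNA markers of root, stem and leaf were measured, and the tissue labels were not checked.

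The 6 mature sequences are shown because the families' values are sums over them, and because the miR394 forms overlap. They are written as DNA as in the deposited table, 5' to 3', with the seed (bases 2 to 8) in capitals.
miR164a: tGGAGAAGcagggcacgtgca
miR164a-3p: cATGTGCCcgtcttccccatc
miR164b-3p: cACGTGCTccccttctccaac
miR394a: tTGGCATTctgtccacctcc
miR394b: tTTGGCATtctgtccacctcc
miR394a-3p: aGCTCTGTtggcttctctttg
No 2 members shared a seed, and no other sequence of the table had any of these seeds. Bases 2 to 21 of miR394b equalled the 20 bases of miR394a, so both differ by 1 base at the 5' end, which moves the seed by 1 base. The guide strands miR164a and miR394a, which begin with T (U in the RNA), matched known miRBase entries in full, per the authors' table. The 3' arms miR164a-3p and miR164b-3p had the same length of 21 bases and differed from each other at 6 of them. Counted from the 5' end of miR164a-3p, the differences were T3C, C8T, G10C, T11C, C16T and T20A.

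The authors' table places miR164a and miR164a-3p on 1 hairpin of 147 bases, on the plus strand of transcript TRINITY_DN27792_c0_g1 of their assembly, positions 25 to 171. No genome position was used here. The hairpin is shown with both arms in capitals because the table assigns both main miR164 forms to it.
miR164 hairpin: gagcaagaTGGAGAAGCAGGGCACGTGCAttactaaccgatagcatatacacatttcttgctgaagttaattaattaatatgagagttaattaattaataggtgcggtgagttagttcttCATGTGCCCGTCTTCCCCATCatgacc
In the authors' structure 16 bases of miR164a paired with miR164a-3p, and each strand ran 2 bases past the other at its 3' end, the form of a Dicer-cut duplex. For miR164b-3p the table gives no birch hairpin. Laid against miR164a without gaps and with the same overhang, it formed 16 Watson-Crick pairs and 1 G-U pair over 19 facing bases, against 15 and 1 for miR164a-3p. Reads of miR164a from more than 1 gene copy could therefore not be told apart.

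The miR394 hairpin had a different layout. It is shown with miR394a and miR394a-3p in capitals because the listed 3' form lies outside the duplex that holds miR394a.
miR394 hairpin: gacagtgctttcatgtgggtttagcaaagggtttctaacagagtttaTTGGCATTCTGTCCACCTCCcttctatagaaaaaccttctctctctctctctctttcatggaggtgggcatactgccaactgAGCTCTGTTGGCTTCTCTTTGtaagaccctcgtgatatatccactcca
It spans 177 bases on the plus strand of transcript TRINITY_DN25295_c2_g1, positions 197 to 373, and a second row gives the inner part, positions 207 to 360. In that row the authors marked a 3' arm of 20 bases, aggtgggcatactgccaact, which paired with 15 bases of miR394a and left 2-base overhangs at both 3' ends. This arm has no row of its own in the table. miR394a-3p began 1 base after it, paired with no base of miR394a, and faced a stretch of the 5' side that ended 2 bases before miR394a. The authors list miR394b on a 3' arm, although it holds the whole of the 5'-arm sequence miR394a. No hairpin in the table held miR394b in full. The miR394a hairpin has another base in front of miR394a (T1A, from 1 at the 5' end of miR394b). The hairpin listed for miR394b, 40 bases with no transcript name, differs inside the run (C15A).
miR394b hairpin: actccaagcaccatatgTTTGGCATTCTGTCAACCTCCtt
Capitals mark the run most like miR394b. Only 5 of its 21 bases were paired, against 17 of 20 for miR394a in its own hairpin. The minimal folding energy index given by the authors was 0.4 for the miR394b hairpin and 0.9 for both long hairpins above, with a median of 0.9 over the 108 distinct hairpin entries of the table.

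**Figure D1:**
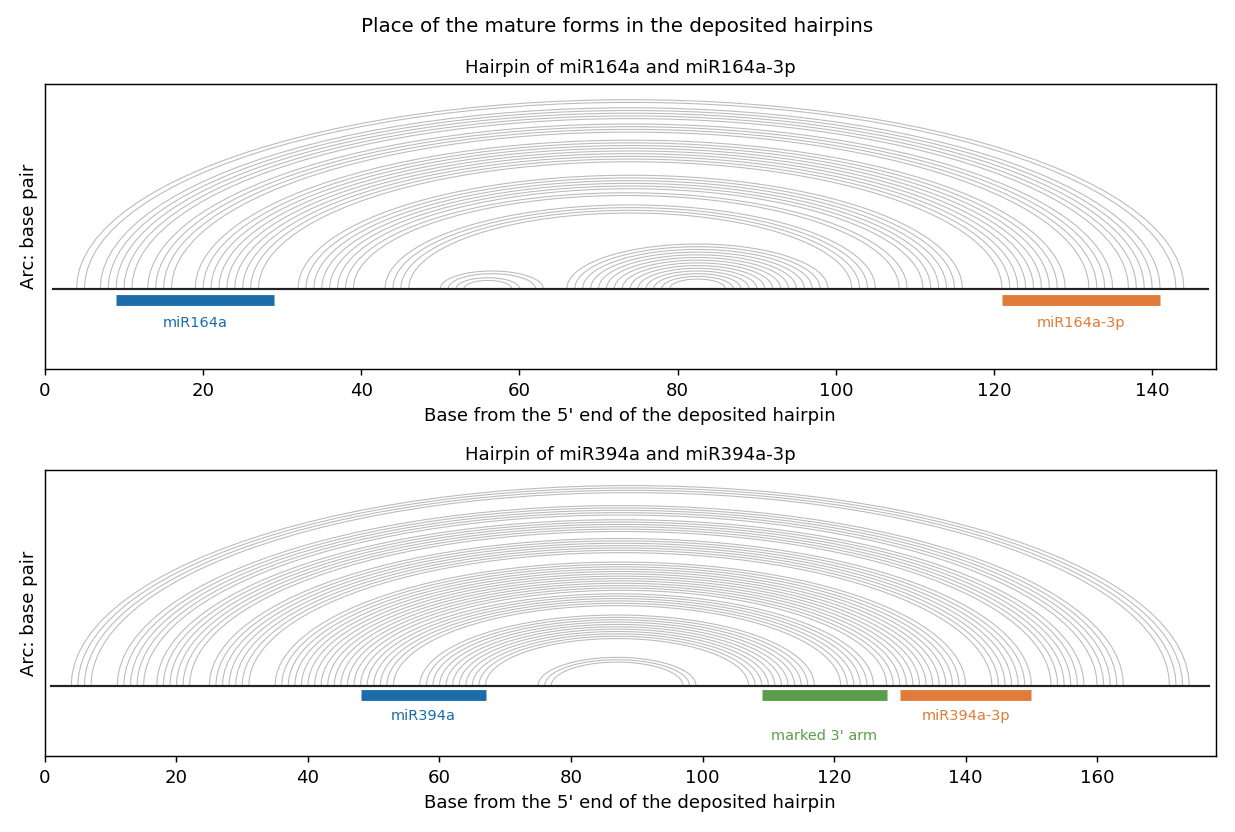
Place of the mature forms (coloured bars) in the 2 long hairpins, in bases from the 5' end of each hairpin, with the authors' base pairs as arcs. miR164a at bases 9 to 29 faces miR164a-3p at 121 to 141, whereas miR394a at 48 to 67 faces the marked 3' arm at 109 to 128 and not miR394a-3p at 130 to 150.

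Levels below are the authors' normalized values, which are raw reads times 1 constant per library. miR164 stood at 1279 (1167 to 1401) in root LP, 2892 (2787 to 3001) in root CK, 3266 (3168 to 3366) in shoot LP and 5168 (5067 to 5270) in shoot CK. miR394 stood at 182 (142 to 232) in root LP, 326 (291 to 364) in root CK, 823 (774 to 874) in shoot LP and 3029 (2952 to 3107) in shoot CK. Both families thus had the order root LP, root CK, shoot LP, shoot CK from low to high, and in neither family did the counting intervals of neighbours in that order overlap. As shares of the table's reads, which use no constant, miR394 kept this order with 0.0653%, 0.103%, 0.146% and 0.577%. The miR164 shares were 0.460% in root LP, 0.917% in root CK, 0.578% in shoot LP and 0.985% in shoot CK. By share, root CK therefore stood above shoot LP for miR164, so the order of those 2 libraries depends on the scaling. In these bulk samples fewer cells with the miRNA and less of it per cell cannot be told apart. The table's reads summed to 101816 in root LP, 308667 in root CK, 723599 in shoot LP and 1015833 in shoot CK, and root LP gave the widest relative intervals.

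In each family 1 sequence held most reads. miR164a held 95.3% of the miR164 reads in root LP, 95.9% in root CK, 98.0% in shoot LP and 97.4% in shoot CK. miR394a held 94.7%, 95.9%, 92.5% and 94.4% of the miR394 reads in the same order. All 6 members reached a normalized value of 10 in 1 library or more, and 2 values were listed at 0, miR164b-3p and miR394a-3p in root LP.

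**Figure D2:**
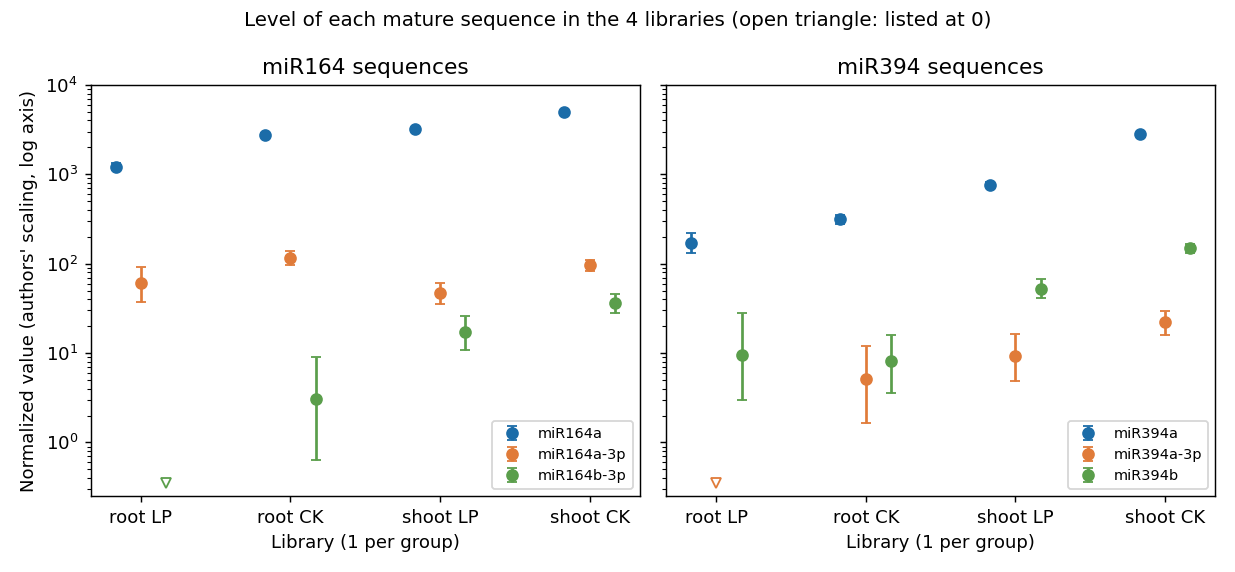
Normalized value (log axis) of each miR164 and miR394 sequence in the 4 libraries, 1 point per library with its exact 95% Poisson counting interval. miR164a and miR394a stand far above their 3' and length forms in every library, and miR164b-3p and miR394a-3p are listed at 0 in root LP.

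In roots, LP against CK gave lower values of both guide strands. miR164a, the NAC-targeting strand, had 446.5 raw reads and a normalized value of 1219 in root LP, against 2713.5 reads and 2773 in root CK. It was 2.27-fold (2.06 to 2.52) lower in LP, and its own other arm miR164a-3p, with a value of 60.1 in root LP (22 reads) and 116 in root CK (114 reads), was 1.94-fold (1.22 to 3.22) lower. The interval of the arm includes the fold of miR164a. miR394a, the F-box-targeting strand, had 63 reads and a value of 172 in root LP, against 306 reads and 313 in root CK, and was 1.82-fold (1.38 to 2.42) lower. The other members did not pass the value filter described next, and no root fold is given for them here: root LP held 3.5 reads of miR394b, 0 of miR164b-3p and 0 of miR394a-3p, and root CK held 8, 3 and 5.

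A sequence was called when it differed by 2-fold or more and reached a value of 10 in 1 of both libraries. In roots 3 of the 6 members passed that value filter, and miR164a was the one member at 2-fold or more. Of all 143 sequences past it, 18.2% were 2-fold or more lower and 42.7% were so in either direction, and nothing is read from 1 member in 3. Among the summed families, 8.33% of 48 were 2-fold or more lower in root LP, and miR164 had the second lowest ratio of the 48 (log2 ratio -1.18 on values plus 1) and miR394 the fifth lowest (-0.84). The median family had 0.14. With TMM 2 of the members were 2-fold or more lower, since miR164a-3p came to -0.99 in log2(value + 1) and just passed 2-fold in the plain ratio. Scaled to the table total, the plain root ratios moved by 0.18 in log2, and the miR164 ratio became -0.99, just under 2-fold.

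In shoots, LP against CK gave a lower miR394 and a less changed miR164. miR394a had 975 reads and a value of 761 in shoot LP, against 5532 reads and 2858 in shoot CK, and was 3.76-fold (3.51 to 4.03) lower. The 21-base form miR394b, at 52.7 in shoot LP and 148 in shoot CK, was 2.81-fold (2.14 to 3.70) lower. miR394a-3p, from 12 reads in shoot LP and 43 in shoot CK, was 2.37-fold (1.23 to 4.94) lower. All 3 forms were lower in shoot LP, and with the authors' constants none of the 3 intervals includes equality. miR164a had 4104 reads and a value of 3202 in shoot LP, against 9745.5 reads and 5035 in shoot CK, 1.57-fold (1.52 to 1.63) lower. Its 3' arms were somewhat further down, miR164a-3p by 2.05-fold (1.53 to 2.79), at 46.8 in shoot LP and 96.1 in shoot CK, and miR164b-3p by 2.11-fold (1.29 to 3.57), at 17.2 and 36.2. Both intervals reach to the value of miR164a, so the arms were not separated at this depth.

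All 6 members passed the value filter in shoots and 5 were 2-fold or more lower, miR164a being the exception. With median-of-ratios factors 3 of the 6 were 2-fold or more lower and with TMM 2, miR394a and miR394b. Under TMM miR164a-3p had a log2 ratio of -0.63, miR164b-3p -0.66 and miR394a-3p -0.80. Of all 140 sequences past the filter, 27.9% were that much lower and 45.7% differed in either direction. The 6 members are not 6 separate measurements, since they come from few hairpins and miR394a and miR394b share 20 bases. With 9.36 in shoot LP and 22.2 in shoot CK, miR394a-3p passed the filter through shoot CK alone and could not have been called higher. By family sum, 35.7% of 42 families were 2-fold or more lower, miR394 with the third lowest ratio (-1.88) and miR164 at rank 20 (-0.66), next to the median of -0.63. Scaling moved the whole shoot comparison: with TMM factors the plain ratios rose by 0.39 in log2. The split of all sequences became 48 up against 23 down, where the authors' constants gave 25 and 39. Median-of-ratios factors raised the plain ratios by 0.16 in log2 and gave 36 and 32. miR394 stayed over 2-fold lower under each scaling, at -1.49 with TMM. miR164 was at -0.27 with TMM.

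**Figure D3:**
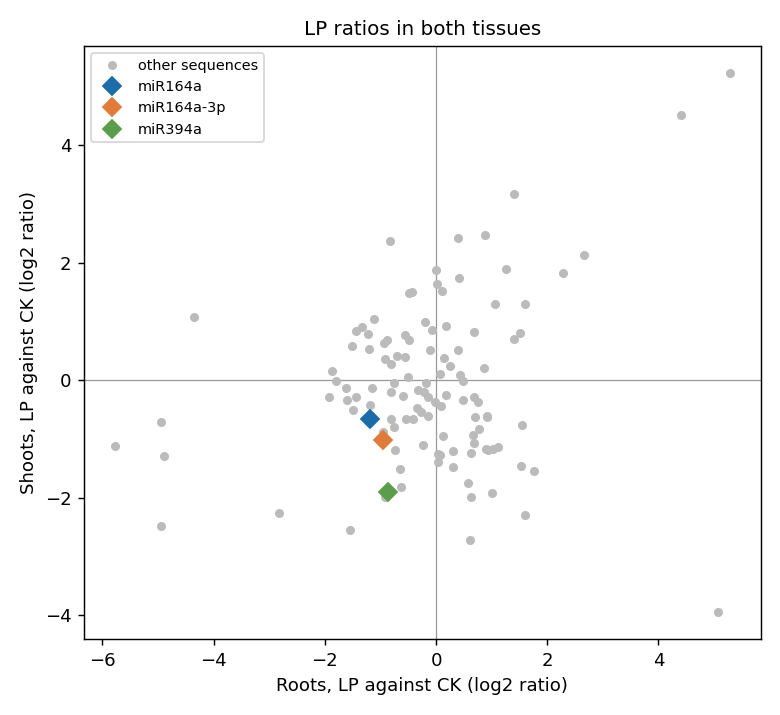
LP against CK log2 ratios in roots (horizontal axis) and shoots (vertical axis) for the 117 sequences past the value filter in both tissues, members as diamonds. miR164a (-1.19 in roots, -0.65 in shoots), miR164a-3p (-0.94 and -1.02) and miR394a (-0.86 and -1.91) all lie at lower left, with both ratios below 0, as do 30.7% of the other 114 sequences.

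Set side by side, the LP ratio of miR394 was further down in shoots (-1.88) than in roots (-0.84), a difference of -1.04, and that of miR164 less far down in shoots (-0.66) than in roots (-1.18), a difference of 0.51. These ratios use the authors' constants, and the size of both differences depends on the scaling. For miR164 the table total gave -0.77 in shoots and -0.99 in roots, and TMM -0.27 and -1.23. For miR394 the table total gave -1.98 in shoots and -0.66 in roots, and TMM -1.49 and -0.89. The difference between tissues was not tested, since each ratio rests on 1 library per treatment.

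The balance between both families can be read within a library, where no scaling enters. miR394 made up 12.4% (9.84% to 15.6%) of the reads of both families in root LP, 10.1% (9.095% to 11.2%) in root CK, 20.1% (19.05% to 21.2%) in shoot LP and 36.95% (36.2% to 37.7%) in shoot CK. The 2 root intervals overlap, while the 2 shoot intervals lie far apart. The ratio of miR394 to miR164 was 2.33-fold (2.16 to 2.51) lower in shoot LP than in shoot CK. In root LP it was 1.26 times (0.942 to 1.69) that of root CK, an interval that includes equality. Under CK the ratio was 5.20-fold (4.61 to 5.88) lower in roots than in shoots, and under LP it was 1.77-fold (1.35 to 2.33) lower in roots than in shoots.

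The 2 arms of the miR164a hairpin were also compared within libraries. miR164a-3p, the strand that is usually discarded, made up 4.70% (2.96% to 7.02%) of the reads of both arms in root LP, 4.03% (3.34% to 4.82%) in root CK, 1.44% (1.10% to 1.85%) in shoot LP and 1.87% (1.62% to 2.16%) in shoot CK. Both root libraries stood above both shoot libraries, and the intervals of a root and a shoot library did not overlap. The ratio of miR164a-3p to miR164a was 2.20 times (1.72 to 2.81) as high in root CK as in shoot CK and 3.37 times (1.95 to 5.63) as high in root LP as in shoot LP. Within a tissue the LP ratio was 1.17 times (0.699 to 1.89) that of CK in roots and 0.766 times (0.561 to 1.03) in shoots, and both intervals include equality. Reads of miR164a that come from a copy with miR164b-3p as its 3' arm would enter this ratio, and miR164b-3p itself was at 3 reads in root CK and 70 in shoot CK. Their part in the result was not tested.

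Among miR394a and miR394b reads, the longer form miR394b made up 5.26% (1.65% to 14.6%) in root LP, 2.55% (1.11% to 4.96%) in root CK, 6.47% (5.10% to 8.19%) in shoot LP and 4.92% (4.39% to 5.52%) in shoot CK. The 4 intervals overlap except that of root CK with shoot LP. The ratio of miR394b to miR394a was 1.34 times (1.01 to 1.77) as high in shoot LP as in shoot CK, at the edge of what the reads can separate.

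**Figure D4:**
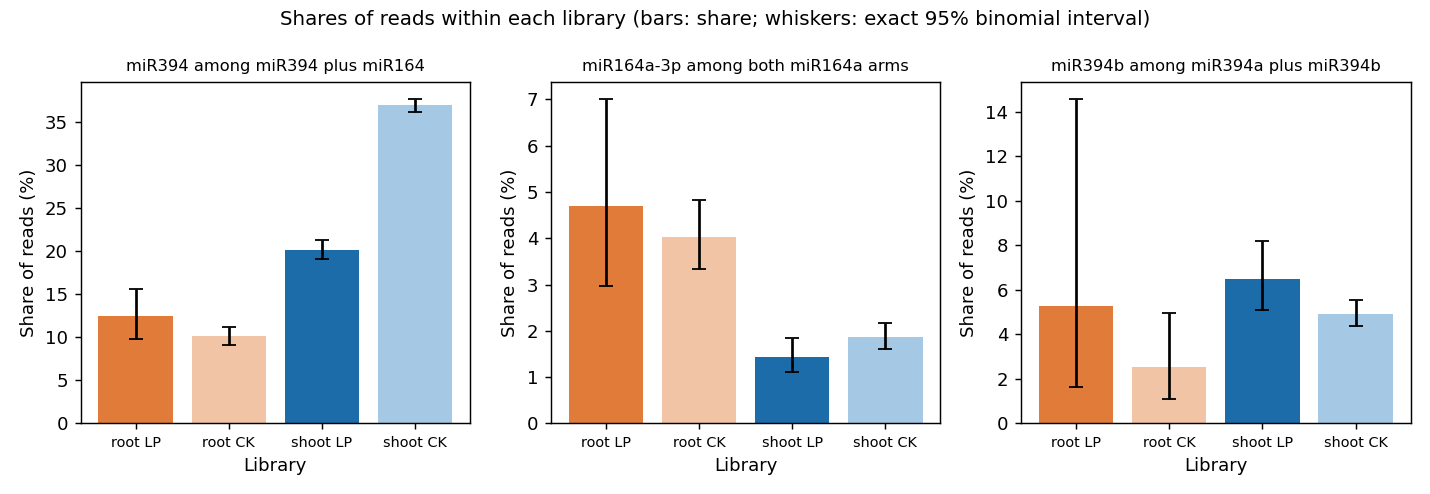
Shares of reads within each library, as bars with exact 95% binomial intervals, for miR394 among both families, miR164a-3p among both miR164a arms, and miR394b among miR394a plus miR394b. miR394 takes 20.1% in shoot LP and 36.95% in shoot CK, against 12.4% in root LP and 10.1% in root CK, while the miR164a-3p share is 4.03% to 4.70% in roots and 1.44% to 1.87% in shoots.

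Roots against shoots showed the widest gaps for miR394. Under CK, miR394a stood at 313 in roots and 2858 in shoots, 9.14-fold (8.15 to 10.3) lower in roots, and miR394b at 8.17 in roots and 148 in shoots, 18.1-fold (9.08 to 42.4) lower in roots. miR394a-3p, with 5 reads in root CK and 43 in shoot CK, was 4.35-fold (1.73 to 14.1) lower. For miR164 the guide strand and its arm went apart: miR164a was 1.82-fold (1.74 to 1.89) lower in root CK, whereas miR164a-3p had 116 in root CK and 96.1 in shoot CK, a ratio of 1.21-fold (0.951 to 1.54). miR164b-3p was 11.8-fold (3.87 to 58.6) lower in root CK, from 3 reads in roots. Of the 6 members past the filter 4 were 2-fold or more lower in root CK, where 38.0% of all 142 sequences were that much lower and 64.1% differed in either direction. Of these members, miR394b, miR394a-3p and miR164b-3p passed the filter through shoot CK alone and could not have been called higher. Nothing is therefore read from 4 members in 6. Among 42 families, 35.7% were 2-fold or more lower in root CK, and miR394 had the third lowest ratio (-3.21), miR164 rank 17 (-0.84).

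Under LP the root and shoot gap of miR394 was smaller. miR394a stood at 172 in root LP and 761 in shoot LP, 4.42-fold (3.43 to 5.80) lower in roots, and miR394b at 9.55 in root LP and 52.7 in shoot LP, 5.51-fold (1.81 to 18.3) lower. miR164a stood at 1219 in root LP and 3202 in shoot LP, 2.63-fold (2.38 to 2.90) lower, and miR164a-3p at 60.1 and 46.8, a ratio of 1.28-fold (0.749 to 2.12). miR164b-3p was listed at 0 in root LP and had 22 reads in shoot LP, so no fold is given. Of 5 members past the filter 4 were 2-fold or more lower in root LP, where 38.0% of all 158 sequences were that much lower and 72.8% differed in either direction. The 4 include miR164b-3p, listed at 0 in root LP. Both miR164b-3p and miR394b passed the filter through shoot LP alone and could not have been called higher. Nothing is therefore read from 4 members in 5. Among the 48 families past the filter 27.1% were 2-fold or more lower in root LP, with miR394 at rank 7 from the lowest (-2.17) and miR164 at rank 10 (-1.35).

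The largest shifts came in the tissue comparisons. Scaling to the table total raised the plain root against shoot ratios by 0.73 in log2 under CK and by 1.02 under LP. It turned the split of all sequences to 56 up and 37 down in root CK, where the authors' constants gave 37 and 54. In root LP it gave 84 up and 37 down, against 55 and 60 with the authors' constants and 44 and 73 with TMM. miR394 stayed over 2-fold lower in roots throughout, at -2.48 under CK and -1.15 under LP by the table total. miR164 went to -0.10 under CK and -0.33 under LP by the table total, with miR164a itself at -0.37 under LP, no longer 2-fold lower. miR164a-3p went the other way, to 1.00 under CK and 1.36 under LP by the table total, 2-fold or more higher in roots. With the other 3 scalings it was between 0.03 and 0.52 and under 2-fold.

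**Figure D5:**
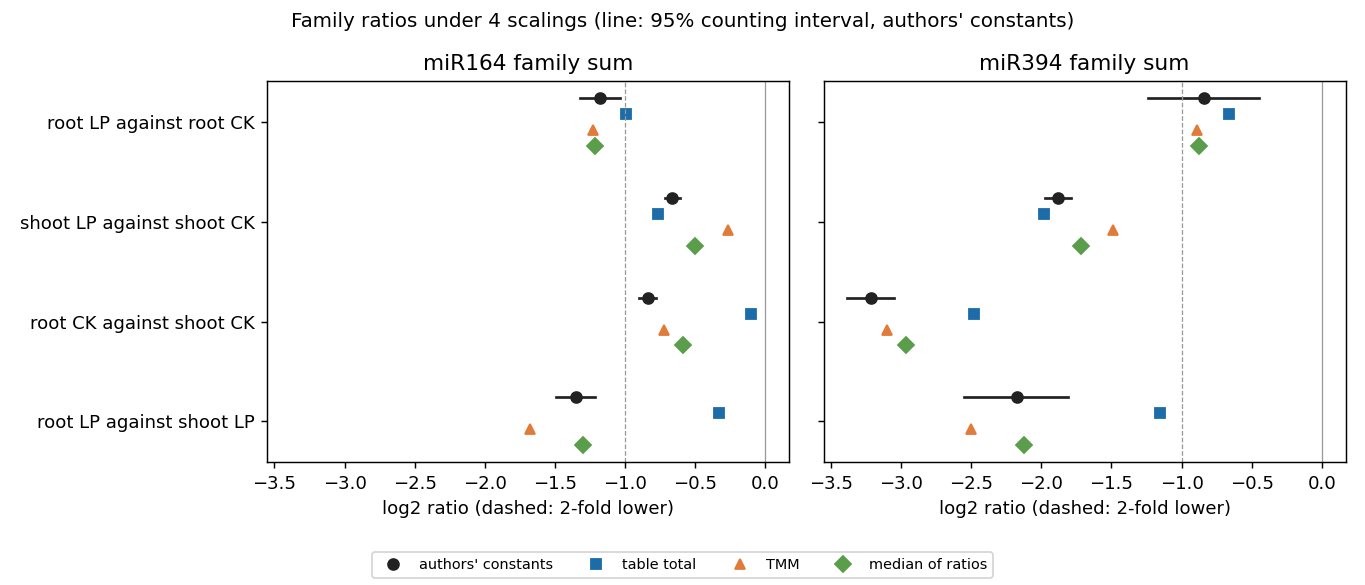
Log2 ratios of the miR164 and miR394 sums in the 4 comparisons under 4 scalings, the line being the 95% counting interval with the authors' constants and the dashed line 2-fold lower. All points lie below 0, and miR394 stays beyond the dashed line in every comparison but root LP against root CK, while miR164 comes near 0 by the table total in both tissue comparisons.

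Other families with roles in meristems, leaves and phase change were set beside them (miR156, miR157, miR159, miR165, miR166, miR171, miR172, miR319 and miR396), 7 of which are in the table. In root LP against root CK 1 of the 7 was 2-fold or more lower and 0 higher, with a median log2 ratio of 0.05, and that family was miR319, which targets TCP genes of leaf growth, at 138 in root LP and 311 in root CK. By the table total it came to -0.99, and 0 of the 7 were then called. In shoot LP against shoot CK 3 were lower and 0 higher, with a median of -0.64. They were miR319 by 3.99-fold (3.84 to 4.15), miR172, which targets AP2-type genes, by 3.07-fold (2.66 to 3.56), and miR159, which targets GAMYB genes, by 2.31-fold (2.28 to 2.34). Of all families 8.33% were that much lower in roots and 35.7% in shoots, with medians of 0.14 and -0.63, so 3 of 7 in shoots is near the general share. With TMM miR159 came to -0.81 in shoots, under 2-fold, while miR156, which targets SPL genes, was 2-fold or more higher in shoot LP with TMM (1.23) and with median of ratios (1.00). In root CK against shoot CK 3 were lower (miR159, miR172 and miR319) and in root LP against shoot LP 2 (miR159 and miR319), beside 35.7% and 27.1% of all families and list medians of -0.71 and -0.49. Both counts are near the general share. By the table total miR159 came to -0.10 in root LP against shoot LP, and miR156 under CK (1.01) and miR396, which targets growth-regulating factors, under LP (1.41) were 2-fold or more higher in roots.

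The families with the most similar profile were found from the distance between log2 values over the 4 libraries, each profile centred on its mean, among 34 other families with a sum of at least 100 in 1 library. For miR164 they were miR390 (distance 0.49), which triggers trans-acting siRNAs, then miR171 (0.78), which targets GRAS genes, and miR6478 (0.94). miR390 had 1130.1 in root LP, 1914 in root CK, 1848 in shoot LP and 4124 in shoot CK. For miR394 they were miR159 (1.30), miR169 (1.41), which targets NF-Y genes, and miR319 (1.74). miR159 had 12507 in root LP, 8443 in root CK, 27234 in shoot LP and 62876 in shoot CK. Unlike miR394, miR159 was thus higher in root LP than in root CK. The same held slightly for miR169, at 727 in root LP and 698 in root CK, while miR319 was lower in root LP, as miR394 was. The distances to miR394 were larger than those to miR164, and with 4 libraries they describe these libraries only.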

How the data were processed

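Small RNA of 4 libraries, 1 each for root LP, root CK, shoot LP and shoot CK, was sequenced as 36-base single reads, per the labels' protocols. The authors deposited 1 table of 221 mature miRNA rows. Its raw columns hold estimated counts of reads, some fractional, and its norm columns hold a signal, made by the authors as the raw reads times a constant of 2.73 for root LP, 1.02 for root CK, 0.780 for shoot LP and 0.517 for shoot CK, as the ratio of the deposited columns shows. Mature and hairpin lengths and positions, the GC percent of each hairpin and its folding energy score are used as deposited, per the file headers. No source used here gives the aligner, counter or miRBase release. Another 2 lines hold no text and were not used.

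Rows with the same sequence were collapsed to 215, and families are sums over distinct sequences with the same number. Folds are plain ratios of normalized values, and log2 ratios were taken after adding 1. Fold intervals are exact conditional (Clopper-Pearson, 95%) and level intervals exact Poisson, from raw reads rounded to whole numbers, and ratios of ratios use the exact conditional odds ratio (scipy 1.17.1). They were tested on simulated data. Depth is the table total, 101816 to 1015833 reads, not the whole library. The table rarely lists 1 read (5 of 705 values above 0), so no upper limit is given for a 0. Alternatives were scaling to the table total, TMM (edgeR 4.0.16) and median of ratios (DESeq2 1.42.0), a pseudocount of 10, value minimums of 1 and 100, rows as deposited and the most abundant sequence alone. All 6 members are named, of the development families those at 2-fold or more, and the 3 most similar families of each. Members and lists were chosen with earlier results of these data known.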

Additional observations from a re-analysis of the deposited data

Results flagged for a closer look

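The LP ratio of miR394b had opposite signs in the tissues, with a log2 ratio of -1.47 in shoots and 0.20 in roots. Root LP held 3.5 reads of it and root CK 8, and the root fold of 1.17 has a counting interval of 0.294 to 4.99, which includes the shoot fold of 0.356. The difference between the tissues was not tested.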

How the results depend on the processing

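No paired analysis was possible because each group is 1 library, and for the same reason no replicate could be left out. Of 48 recomputed log2 ratios of the family sums none changed sign, 33 stayed within the counting interval and 15 did not. The 15 outside it all came from scaling. The 33 include rows as deposited, which could not differ, since the 6 members fill 6 rows. They also include the most abundant sequence alone, which holds most reads of its family, and a pseudocount of 10, which is small beside the sums. The 33 are therefore no measure of how firm the ratios are under scaling. For miR164, scaling to the table total gave -0.99 for root LP against root CK, -0.77 for shoot LP against shoot CK, -0.10 for root CK against shoot CK and -0.33 for root LP against shoot LP. TMM gave -0.27, -0.72 and -1.68 for the last 3, and median of ratios -0.50 in shoots and -0.59 for root CK against shoot CK. For miR394, the table total gave -1.98 in shoots, -2.48 for root CK against shoot CK and -1.15 for root LP against shoot LP, and in shoots TMM gave -1.49 and median of ratios -1.71, with -2.96 for root CK against shoot CK. With the most abundant sequence of each family alone, the share of miR394 among both families stayed within its interval in each library. In shoot CK it came to 36.21%, just above the lower limit of 36.20%. Rows as deposited could not change this share. Counts of sequences at 2-fold or more were 61 in roots and 64 in shoots for LP against CK, and 101 and 104 with a value minimum of 1 in place of 10. With a minimum of 100 they were 18 and 28, and 54 for root CK against shoot CK in place of 91 and 55 for root LP against shoot LP in place of 115, since fewer sequences pass. Depth limits miR164b-3p, miR394a-3p and miR394b in roots.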
